A study of Mus musculus with 8 samples.

Results

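Chemokines are small secreted proteins that guide leukocytes, and their receptors are membrane proteins that signal through inhibitory G proteins. In steatohepatitis, chemokines from hepatocytes, endothelium and resident macrophages are known to draw monocytes, lymphocytes and neutrophils into the liver. Atypical receptors bind the same ligands without G protein signalling and remove or move them. The genes described here are those of the mouse count table whose symbols begin with Ccl, Cxcl, Cx3cl, Xcl, Ccr, Cxcr, Cx3cr, Xcr or Ackr followed by a number, without Ccrl2 and pseudogenes. They came to 62 of 31910 genes, with 39 ligands, 19 receptors and 4 atypical receptors. Of these, 29 had 10 or more counts in at least 3 libraries and 27 passed the expression filter of the test, while 16 were listed at 0 in every library.

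RNA was sequenced from frozen livers of mice injected with AAV2/9-SA (the Liver-SA group, 4 libraries) or AAV2/9-Ctrl (the Liver-ctrl group, 4 libraries). AAV2/9 is an adeno-associated virus used to carry a gene into the liver. The series title concerns a tetrameric protein of bacterial origin that binds acetyl-CoA carboxylase, the first enzyme of fatty acid synthesis, in steatohepatitis. Feeding schemes in the design text were HFD (24 weeks), HFHC together with fructose and sucrose in the water (16 weeks) and normal chow, and each mouse received 4.8e10 vector genomes through the tail vein once 7 weeks of feeding had passed. Which diet the 8 samples had is not in their labels, and neither are strain, sex, age or the promoter that drove the transgene. Since no label states that each sample is a different animal, every p-value here refers to sample-to-sample spread, which may be technical in part. Total counts were 14114145 to 28184001 in SA libraries and 14359368 to 15328093 in ctrl libraries, and markers of hepatocytes, such as Alb, summed to 55955 to 79679 CPM in SA livers and 63563 to 88496 CPM in ctrl livers, far above those of any other cell type listed here.

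Among the tested members, the lowest log2 fold changes belonged to the monocyte and macrophage receptors Cx3cr1, Ccr1 and Ccr2. The atypical receptor Ackr3 came next (-1.39), and the highest values belonged to the ligands Ccl5 and Cxcl1. With edgeR none of the 27 tested genes passed an adjusted p of 0.05, a threshold that 0.0162% of the 12358 tested genes passed (0.00809% in each direction). With DESeq2 1 member passed, Cx3cr1, which was lower in SA (0.283% of all tested genes were called lower by DESeq2). At an unadjusted edgeR p under 0.05 stood 6 members, against 6.21% of all tested genes. Of these, 4 members were lower (Cx3cr1, Ccr2, Ackr3 and Ccr7, against 3.29% of all tested genes) and 2 were higher (Ccl5 and Cxcl1, against 2.91%). With limma-voom none passed after adjustment, as 0.0243% of all tested genes did, and 7 members had an unadjusted p under 0.05, against 5.63% of all tested genes. Of the 9 tested receptors 7 had a negative log2 fold change, as did 51.3% of all tested genes, and their median was -0.87, while all tested genes had a median of -0.01. The 15 tested ligands had a median of 0.06, with 8 positive. These medians describe the members that passed the filter and were not tested. Ccr7 and Ccr1 passed it mainly through ctrl libraries. Among SA libraries, Ccr7 had 10 or more counts in SA 4 alone and Ccr1 in SA 1 alone. Without a low-count filter the median of the receptors was -0.44. Levels are counts per 1000000 counts of the TMM-scaled library (CPM), and fold changes are SA over ctrl on the log2 scale.

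**Figure D1:**
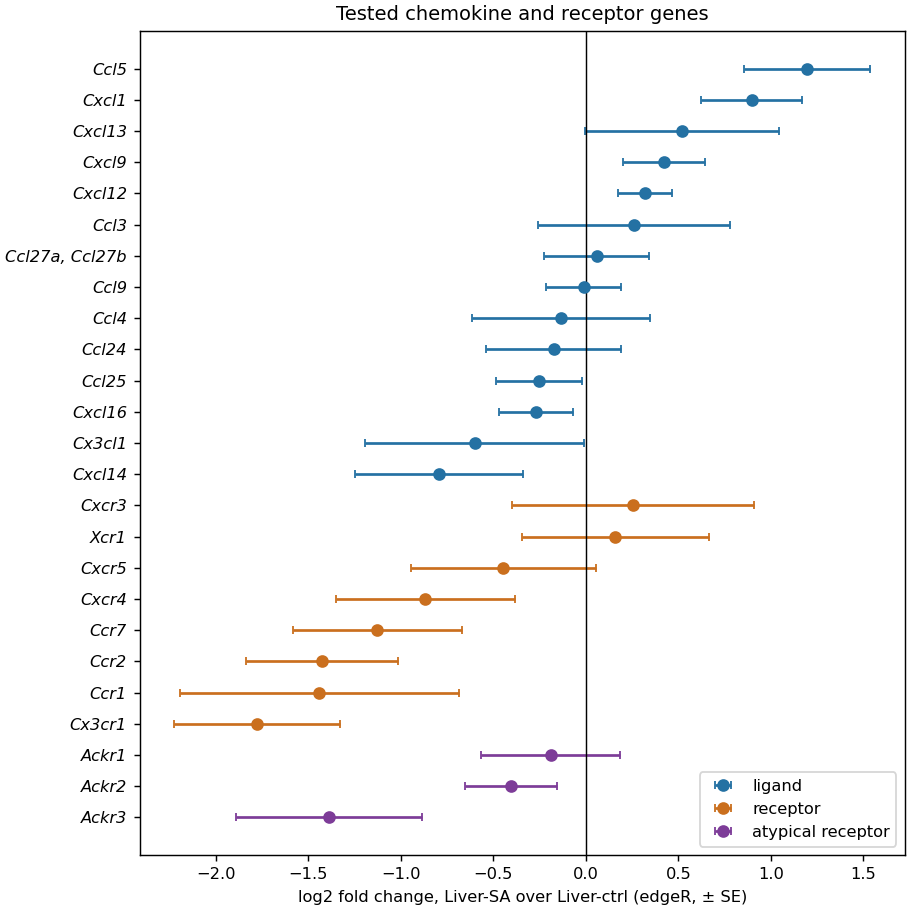
Log2 fold change (Liver-SA over Liver-ctrl, edgeR, with its standard error) of 25 tested genes, grouped as ligands, receptors and atypical receptors; Ccl27a and Ccl27b share 1 point because their counts are identical. Ccl5 (1.20) lies farthest to the right and Cx3cr1 (-1.78) farthest to the left.

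Cx3cr1, the fractalkine receptor of patrolling monocytes and some tissue macrophages, was at 2.48, 0.813, 1.45 and 1.19 CPM in SA 1 to 4, against 8.46, 2.14, 3.44 and 6.17 CPM in ctrl 1 to 4. The groups overlapped through a single pair, since SA 1 lay above ctrl 2. Its change on the log2 scale was -1.78 ± 0.45 (SE, edgeR; unadjusted p = 0.00171, adjusted p = 0.367) and DESeq2 gave an adjusted p of 0.0145. In 17 alternative analyses of the counts it stayed between -2.12 (without SA 1) and -1.41 (without ctrl 1), and the adjusted p ranged from 0.0145 to 0.887. Its membrane-bound ligand Cx3cl1 was at 0.738, 1.13, 1.66 and 1.01 CPM in SA libraries and at 3.68, 0.207, 1.87 and 1.08 CPM in ctrl libraries. Cx3cl1 had a log2 change of -0.60 ± 0.59 (SE, edgeR; adjusted p = 0.996), which turned to 0.0828 without ctrl 1, the highest library.

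Ccr2, which lets inflammatory monocytes leave the bone marrow and enter tissue, was at 4.16, 2.44, 2.56 and 3.001 CPM in SA livers, against 15.3, 3.31, 5.01 and 9.12 CPM in ctrl livers. Again ctrl 2 was the lowest ctrl library, and it lay below SA 1. Its change on the log2 scale was -1.43 ± 0.41 (SE, edgeR; unadjusted p = 0.00418, adjusted p = 0.480), and it was -0.93 without ctrl 1. DESeq2 gave -1.43 with an adjusted p of 0.0566. The authors' FPKM, which are scaled for transcript length, put Ccr2 at 0.718, 0.383, 0.968 and 0.603 in SA livers and at 3.003, 0.812, 1.17 and 1.70 in ctrl livers.

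**Figure D2:**
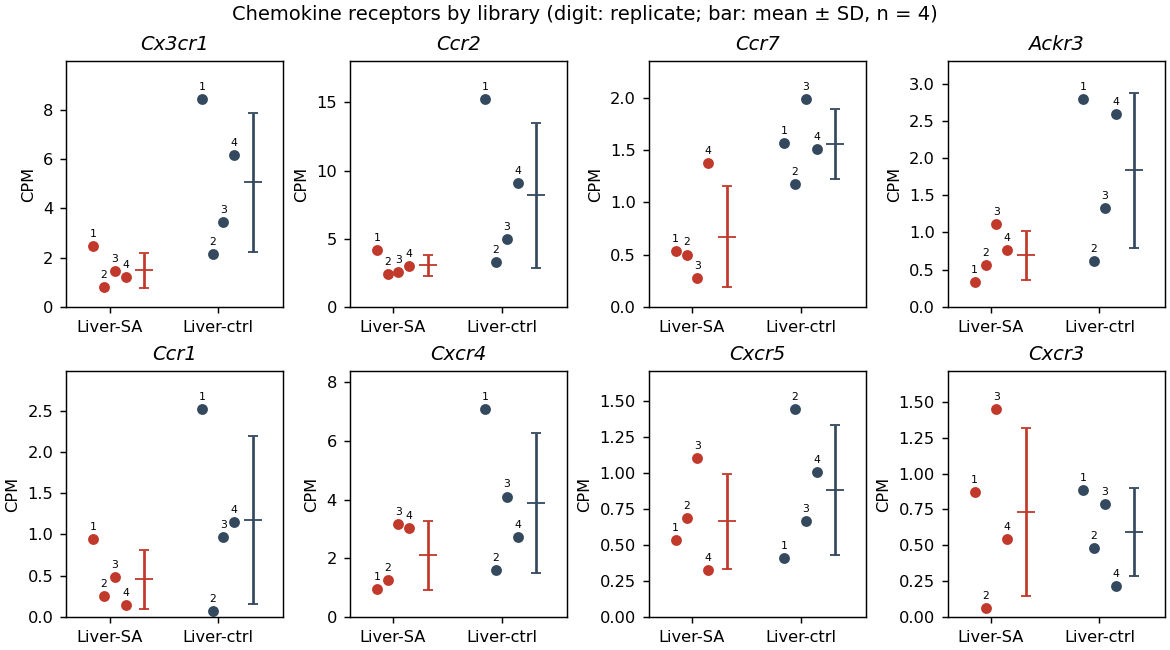
CPM of 8 chemokine receptors in each Liver-SA (red) and Liver-ctrl (dark) library; digits give the replicate and bars the mean ± SD of 4 libraries. Cx3cr1 and Ccr2 were highest in ctrl 1 and ctrl 4, while the Cxcr5 and Cxcr3 groups overlapped.

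Ccl2, the main monocyte attractant acting on Ccr2, was listed at 0 in the count table in all 8 libraries but had values in the authors' FPKM table. There it was at 0.672, 0.949, 1.64 and 1.36 FPKM in SA livers, against 5.74, 2.72, 12.6 and 1.59 FPKM in ctrl livers. The SA libraries lay below ctrl 1 to 3, and SA 3 lay above ctrl 4. On the log2(FPKM + 1) scale the difference was -1.36 ± 0.48 (SE; limma, unadjusted p = 0.0217, adjusted p = 0.999). Ccl7, a further Ccr2 ligand that did not pass the expression filter, was at 0 to 0.398 CPM in SA livers and at 0.138 to 1.33 CPM in ctrl livers. Ccl12, also a Ccr2 ligand in mice, reached at most 0.138 CPM in any library.

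Ccr1, a receptor for macrophage inflammatory proteins found on monocytes and neutrophils, was at 0.939, 0.250, 0.484 and 0.145 CPM in SA libraries and at 2.52, 0.0689, 0.966 and 1.15 CPM in ctrl libraries, so that ctrl 2 was the lowest of all. Its log2 change was -1.44 ± 0.76 (SE, edgeR; adjusted p = 0.886), and it was -0.76 without ctrl 1 and -2.07 without SA 1.

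Ccl5, a ligand of Ccr1 and Ccr3 made in quantity by T and NK cells, was the tested member whose groups did not overlap. It was at 2.62, 3.003, 3.87 and 4.01 CPM in SA livers, against 2.39, 1.38, 1.27 and 0.861 CPM in ctrl livers. Each SA library was above each ctrl library, a pattern seen in 1 of 27 tested members and 1.66% of all tested genes. The opposite pattern was seen in 0 tested members and 1.46% of all tested genes, and either pattern in 3.12%. Its change on the log2 scale was 1.20 ± 0.34 (SE, edgeR; unadjusted p = 0.00389, adjusted p = 0.475; DESeq2, adjusted p = 0.105). Without ctrl 1, the ctrl library nearest to the SA range, it was 1.52, and without ctrl 4 it was 1.01. The FPKM values were 6.59 to 9.03 in SA livers and 1.87 to 6.30 in ctrl livers, again without overlap, as in 2.05% of the rows of that table.

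Other CC ligands had smaller differences. Ccl3 was at 0.671, 1.56, 0.691 and 0.723 CPM in SA libraries and at 0.751, 0.207, 1.39 and 0.646 CPM in ctrl libraries, with a log2 change of 0.26 ± 0.52 (SE; edgeR). Ccl4, like Ccl3 a macrophage inflammatory protein, had -0.14 ± 0.48 (SE), with 0.402, 1.001, 1.24 and 0.687 CPM in SA livers and 1.23, 0.689, 1.33 and 0.359 CPM in ctrl livers. Neither gene had a constant sign, since Ccl3 turned negative without SA 2 or ctrl 2 and Ccl4 positive without SA 1, ctrl 1 or ctrl 3. Ccl9, a mouse Ccr1 ligand of the same family, was at 28.3, 35.5, 31.1 and 36.8 CPM in SA livers, against 45.8, 22.1, 35.9 and 28.9 CPM in ctrl livers, and its log2 change was -0.01 ± 0.20 (SE, edgeR; adjusted p = 0.996). Ccl6, its mouse relative, was listed at 0 in the count table and was at 21.3, 19.3, 24.2 and 20.1 FPKM in SA livers and at 29.3, 10.4, 23.3 and 10.9 FPKM in ctrl livers. Of the ctrl libraries, ctrl 1 lay above the SA range, ctrl 3 within it and the other two below it (limma on log2(FPKM + 1), difference 0.32 ± 0.33 SE, adjusted p = 0.999).

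**Figure D3:**
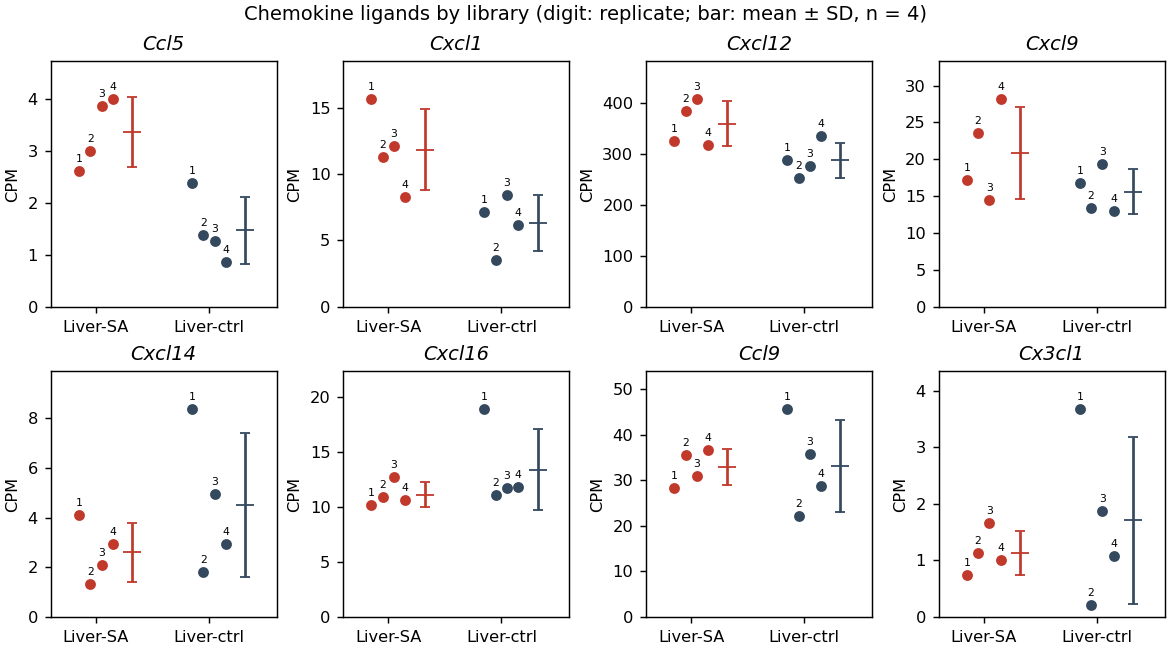
CPM of 8 chemokine ligands in each Liver-SA (red) and Liver-ctrl (dark) library; digits give the replicate and bars the mean ± SD of 4 libraries. The Ccl5 groups are separate and the Cxcl1 groups meet at SA 4 (8.24) and ctrl 3 (8.45). The groups overlap in the other panels, for Cxcl12 through ctrl 4 alone.

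Among the ligands that attract neutrophils through Cxcr2, Cxcl1 was the one with enough counts to be tested. Cxcl1 and Cxcl2 lie near each other on chromosome 5 and carry, in the bases before their start, copies of the letters GGGNNNTTC, taken here for the NF-kB motif. In the sequences that follow, the capitals mark this motif, GAAANNGAA for the interferon-stimulated response element, TTCNNNGAA for the gamma-activated site or TATAAA, the letters of a TATA box. Each was searched on both strands, and these forms are short and common; in Cxcl1 and Cxcl2 NF-kB matches overlap each other. They are shown to set the Cxcr2 ligands beside the Cxcr3 ligands Cxcl9 and Cxcl10 and beside Cxcl12, whose window has no match. Each runs 5′ to 3′ over the first 220 of the 250 bases that RefSeq gives before the start in GRCm38.p6: Cxcl1 at chr5:90890995-90891214 (plus strand), Cxcl2 at chr5:90903649-90903868 (plus strand), Cxcl9 at chr5:92328110-92328329 (minus strand), Cxcl10 at chr5:92348920-92349139 (minus strand) and Cxcl12 at chr6:117168285-117168504 (plus strand).
Cxcl1: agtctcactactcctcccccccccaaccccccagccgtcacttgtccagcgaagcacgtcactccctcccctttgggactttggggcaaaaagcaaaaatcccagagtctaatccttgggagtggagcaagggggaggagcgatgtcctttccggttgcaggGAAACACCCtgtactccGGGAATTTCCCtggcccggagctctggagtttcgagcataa
Cxcl2: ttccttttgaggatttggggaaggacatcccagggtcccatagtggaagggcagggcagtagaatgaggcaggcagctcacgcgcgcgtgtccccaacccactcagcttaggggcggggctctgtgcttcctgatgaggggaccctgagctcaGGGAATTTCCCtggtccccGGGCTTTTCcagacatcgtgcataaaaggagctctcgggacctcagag
Cxcl9: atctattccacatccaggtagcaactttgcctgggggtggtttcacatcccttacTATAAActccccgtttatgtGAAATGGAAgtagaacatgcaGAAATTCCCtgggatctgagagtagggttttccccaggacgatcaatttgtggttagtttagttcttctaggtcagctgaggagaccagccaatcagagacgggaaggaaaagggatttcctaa
Cxcl10: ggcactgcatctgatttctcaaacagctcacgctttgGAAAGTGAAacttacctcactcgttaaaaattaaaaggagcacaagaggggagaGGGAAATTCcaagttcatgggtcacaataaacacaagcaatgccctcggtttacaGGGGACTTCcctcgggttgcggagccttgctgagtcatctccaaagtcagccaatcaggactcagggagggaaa
Cxcl12: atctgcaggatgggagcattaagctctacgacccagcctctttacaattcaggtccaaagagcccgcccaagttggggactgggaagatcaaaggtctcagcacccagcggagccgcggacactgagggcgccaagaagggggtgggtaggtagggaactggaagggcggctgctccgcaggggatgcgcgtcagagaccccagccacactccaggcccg
The NF-kB letters stand in 14 of 54 promoter windows of 47 members (25.9%) and in 10.2% of all 32851 windows. The response element letters stand in 14.8% of the members' windows and 6.29% of all, the gamma-activated site letters in 7.41% and 6.27%, and TATAAA in 7 of the members' windows and 9.95% of all. A match describes letters in a window and not a bound site.

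Cxcl1 was at 15.7, 11.3, 12.1 and 8.24 CPM in SA livers, against 7.16, 3.52, 8.45 and 6.17 CPM in ctrl livers. All SA libraries except SA 4 lay above every ctrl library. Its change on the log2 scale was 0.90 ± 0.27 (SE, edgeR; unadjusted p = 0.00624, adjusted p = 0.518; DESeq2, adjusted p = 0.148). In 20 alternative analyses it stayed between 0.70 (without ctrl 2) and 1.07 (without ctrl 3). In FPKM, Cxcl1 was at 11.7, 10.3, 11.8 and 11.2 in SA livers and at 8.08, 2.59, 11.2 and 3.67 in ctrl livers, where ctrl 3 lay inside the SA range. Cxcl2, which did not pass the expression filter, had means on the other side, with 0.207 to 0.506 CPM in SA livers and 0.144 to 1.27 CPM in ctrl livers. The receptor Cxcr2 was at 0.0723 to 0.469 CPM in SA livers and at 0.0689 to 0.862 CPM in ctrl livers, too low to be tested, and Cxcl3 and Cxcl5 had no count in SA libraries and at most 0.273 CPM in ctrl libraries.

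Cxcl12, a constitutive chemokine of stromal cells and sinusoidal endothelium that retains leukocytes through Cxcr4, was the highest of the 15 members in the length-scaled FPKM table, averaging 87.3 ± 8.06 FPKM in SA livers and 63.1 ± 12.5 FPKM in ctrl livers (SD, n = 4 each). In counts it was at 327, 386, 410 and 318 CPM in SA livers, against 288, 253, 277 and 335 CPM in ctrl livers, where ctrl 4 lay above SA 1 and SA 4. Its change on the log2 scale was 0.32 ± 0.15 (SE, edgeR; unadjusted p = 0.0502, adjusted p = 0.804), and on the log2(FPKM + 1) scale the difference was 0.48 ± 0.16 (SE; limma, unadjusted p = 0.0159, adjusted p = 0.999). Its signalling receptor Cxcr4 was at 0.939, 1.25, 3.18 and 3.04 CPM in SA livers and at 7.10, 1.59, 4.10 and 2.73 CPM in ctrl livers, with a log2 change of -0.87 ± 0.48 (SE, edgeR; adjusted p = 0.918), which was -0.41 without ctrl 1. Ackr3, the atypical receptor that removes Cxcl12, was at 0.335, 0.563, 1.11 and 0.759 CPM in SA livers, against 2.80, 0.621, 1.33 and 2.58 CPM in ctrl livers. Only ctrl 2 lay within the SA range, and the log2 fold change was -1.39 ± 0.50 (SE, edgeR; unadjusted p = 0.0164, adjusted p = 0.633).

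Receptors of lymphocytes and dendritic cells were low in counts in both groups. Ccr7, which brings dendritic cells and naive T cells to lymph nodes, was at 0.537, 0.501, 0.277 and 1.37 CPM in SA livers and at 1.57, 1.17, 1.99 and 1.51 CPM in ctrl livers. SA 4 alone reached the ctrl range. Its change on the log2 scale was -1.13 ± 0.46 (SE, edgeR; unadjusted p = 0.0286, adjusted p = 0.722), and it was -1.82 without SA 4. Its ligands Ccl19 and Ccl21a were listed at 0 in every library. Cxcr3, a receptor of activated T and NK cells, was at 0.872, 0.0626, 1.45 and 0.542 CPM in SA livers and at 0.887, 0.483, 0.785 and 0.215 CPM in ctrl livers, and its log2 change was 0.26 ± 0.65 (SE; edgeR) but -0.88 in limma-voom with sample weights. Cxcr5, the follicular B cell receptor, had -0.45 ± 0.50 (SE), and Xcr1, a marker of cross-presenting dendritic cells, had 0.16 ± 0.50 (SE). Cxcr5 was at 0.537, 0.688, 1.11 and 0.325 CPM in SA livers and at 0.409, 1.45, 0.664 and 1.01 CPM in ctrl livers. Xcr1 spanned 0.362 to 1.25 CPM in SA livers and 0.341 to 1.17 CPM in ctrl livers.

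Of the interferon-induced Cxcr3 ligands, Cxcl9 was at 17.2, 23.6, 14.5 and 28.2 CPM in SA livers, against 16.8, 13.4, 19.4 and 12.99 CPM in ctrl livers. SA 2 and SA 4 lay above the ctrl range and the other two within it, with a log2 change of 0.42 ± 0.22 (SE, edgeR; adjusted p = 0.886). Cxcl10, listed at 0 in the count table, was at 3.89, 5.502, 4.04 and 10.2 FPKM in SA livers and at 10.4, 8.18, 9.73 and 5.11 FPKM in ctrl livers. SA 4 stood with the ctrl libraries and ctrl 4 with the SA libraries, and the difference was -0.48 ± 0.32 on the log2(FPKM + 1) scale (SE; limma, adjusted p = 0.999). Cxcl13, the B cell attractant of Cxcr5, was at 1.34, 2.38, 1.52 and 2.78 CPM in SA livers and at 0.409, 1.65, 2.96 and 0.574 CPM in ctrl livers, with a log2 change of 0.52 ± 0.52 (SE, edgeR; adjusted p = 0.996). For Cxcl13 it was 0.21 without ctrl 1, 0.26 without ctrl 4, 0.30 without SA 4 and 1.20 without ctrl 3.

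**Figure D4:**
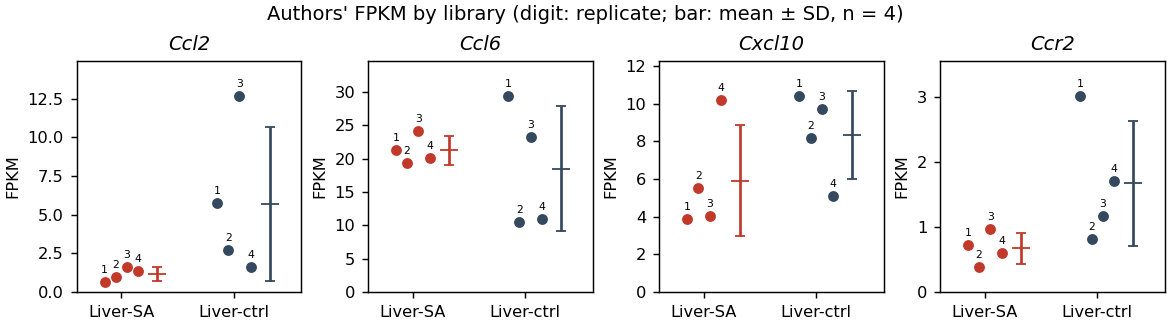
Authors' FPKM of Ccl2, Ccl6 and Cxcl10, which are listed at 0 in the count table, and of Ccr2, in each Liver-SA (red) and Liver-ctrl (dark) library; digits give the replicate and bars the mean ± SD of 4 libraries. Ccl2 reaches 12.6 in ctrl 3 and at most 1.64 in SA livers.

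None of the remaining ligands had an unadjusted edgeR p under 0.05. Cxcl14, an epithelial chemokine, had -0.79 ± 0.45 (SE, edgeR; adjusted p = 0.939), with 1.31 to 4.09 CPM in SA livers and 1.79 to 8.39 CPM in ctrl livers. Cxcl16, the ligand of Cxcr6 on liver NKT and resident T cells, had -0.27 ± 0.20 (SE), and its 10.2 to 12.7 CPM in SA livers stood against 11.1 to 18.9 CPM in ctrl livers. Ccl24, an eosinophil attractant of Ccr3, had -0.17 ± 0.36 (SE), with 1.44 to 2.84 CPM in SA livers and 1.22 to 3.58 CPM in ctrl livers. Ccl25, the gut-homing ligand of Ccr9, had -0.25 ± 0.23 (SE), but 0.0429 without ctrl 3, with 8.42 to 10.8 CPM in SA livers and 8.94 to 17.8 CPM in ctrl livers. Ccl27a and Ccl27b, skin chemokine genes with a near-identical sequence, carried the same count in every library (5.10 to 9.95 CPM in SA livers and 4.16 to 9.60 CPM in ctrl livers), so they stand for 1 measurement with a log2 change of 0.06 ± 0.28 (SE). Among the atypical receptors, Ackr2, a scavenger of inflammatory CC chemokines, had -0.40 ± 0.25 (SE), with 3.09, 3.69, 3.39 and 2.42 CPM in SA livers and 3.41, 4.69, 4.95 and 3.52 CPM in ctrl livers. Ackr1, a chemokine-binding protein of venules and red cells, had -0.19 ± 0.38 (SE), with 0.553 to 1.12 CPM in SA livers and 0.689 to 1.01 CPM in ctrl livers.

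A further 19 members had some counts but did not pass the expression filter: Ccl1, Ccl7, Ccl8, Ccl11, Ccl12, Ccl17, Ccl22, Ccl28, Cxcl2, Cxcl3, Cxcl5, Ccr1l1, Ccr3, Ccr4, Ccr6, Ccr8, Ccr9, Cxcr1 and Cxcr2. The highest single value among them was 2.52 CPM in ctrl 1 for Ccl22, a dendritic cell product that binds Ccr4. Ccl22 was at 0.0692 to 0.563 CPM in SA livers and 0.207 to 0.785 CPM in the other ctrl livers. Ccr3 was at 0 to 0.268 CPM in SA livers and 0.345 to 0.724 CPM in ctrl livers. Like Cxcl5, with no count in SA livers and 0.0603 to 0.273 CPM in ctrl livers, Ccr3 had no overlap between the groups. The share of such separations among untested genes was not computed. The 16 members listed at 0 in all libraries were Ccl2, Ccl6, Ccl19, Ccl20, Ccl21a, Ccl21b, Ccl21d, Ccl26, Cxcl10, Cxcl11, Cxcl15, Cxcl17, Xcl1, Ccr10, Cxcr6 and Ackr4. A 0 there need not mean no transcript, since 3 of them (Ccl2, Ccl6 and Cxcl10) are above 0 in every library of the FPKM table, and so are 495 rows of that table whose count is 0 throughout. One is B2m, a gene of nearly all cells, with a mean of 2342 FPKM. Ccl6 ranked second of the 15 members in the FPKM table, so the counts omit some of the more abundant chemokines of these livers. In GENCODE M21, exons of another gene overlapped 4 of 15 members listed at 0 and 7 of 46 with counts. What left members at 0 was not tested. The 7 with counts were Cx3cr1, Cxcl16, Ccl25, Ccl27a, Ccr9, Cxcr5 and Ackr1, and whether they shared reads was not tested.

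In the FPKM table, 5 of 15 members had an unadjusted limma p under 0.05 on the log2(FPKM + 1) scale, as did 3.44% of its 9255 filtered rows: Ccl5, Cxcl1 and Cxcl12 with higher means in SA livers, and Ccl2 and Ccr2 with lower means. None of the 15 passed after adjustment, and 0.0324% of the rows did. The table holds 1 receptor, Ccr2, so levels of the receptors per length could not be set beside those of the ligands.

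Of 38 ligand and receptor pairs drawn up from textbook binding partners, 9 had both genes tested, several of them sharing a gene. In 6 pairs the ligand had a positive and the receptor a negative log2 fold change, in 2 both were negative, and in 1, Cxcl9 with Cxcr3, both were positive. Pair ratios were taken in log2 after adding 0.5 to each CPM. The ratio of Ccl5 to Ackr2 was -0.26 to 0.63 in SA livers and -1.62 to -0.44 in ctrl livers. That of Cxcl12 to Ackr3 was 7.98 to 8.62 in SA livers and 6.45 to 7.82 in ctrl livers. On this scale every SA library lay above every ctrl library in these 2 pairs, and in the other 7 the groups overlapped. Without the added 0.5, the Cxcl12 to Ackr3 ratio was higher in ctrl 2 than in SA 3. That separation therefore depended on the addition. Ccl5 was already without overlap on its own, and the share of other gene pairs with such a separation was not computed. For Ccl2 and Ccr2, whose FPKM were each lower on average in SA livers, the ratio was 0.936 to 2.48 in SA livers and 0.935 to 10.8 in ctrl livers.

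**Figure D5:**
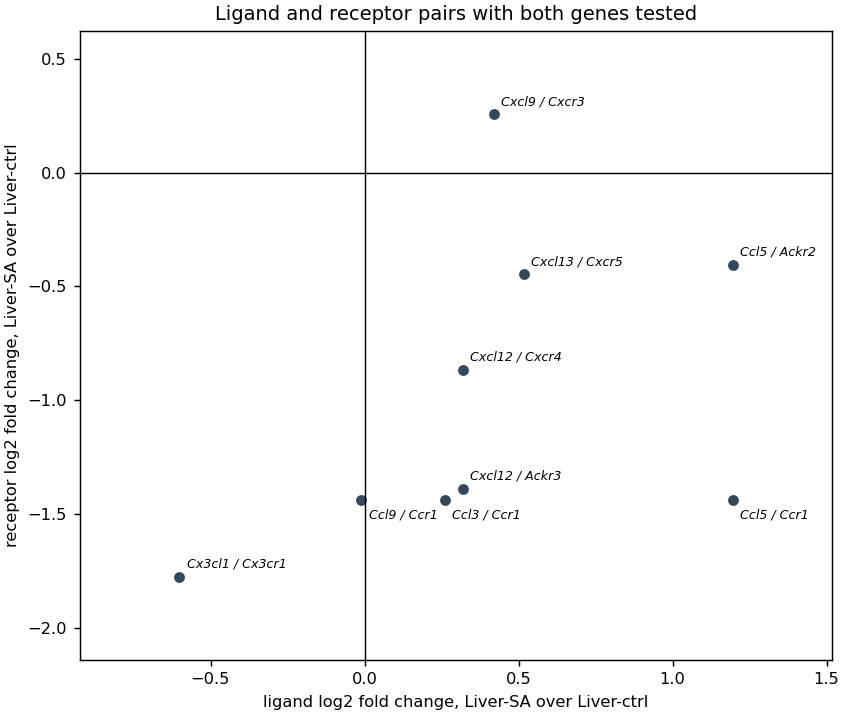
Log2 fold change (Liver-SA over Liver-ctrl) of the receptor against that of its ligand for the 9 pairs with both genes tested. The lower right field, with ligand above and receptor below 0, holds 6 pairs; Cxcl9 with Cxcr3 (0.42 and 0.26) is the pair above 0 for both.

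The spread within the ctrl group bears on most of these values. Of the 26 tested members with counts of their own, ctrl 1 was the highest of the 8 libraries for 9 and ctrl 3 for 5, while ctrl 2 was the lowest for 6 and ctrl 4 for 5. SA libraries were highest for 1 to 3 members each and lowest for 2 to 5. Without ctrl 1 the median log2 fold change of the receptors was -0.69, with 8 of 9 negative, and without SA 1 it was -0.63, with 7 of 9 negative. Leaving out ctrl 1 also moved Cxcl14 to -0.32 and Cxcl16 to -0.0617. Cxcl9 was 0.23 without SA 4. Cxcr5 ran from -0.80 (without SA 3) to -0.0988 (without ctrl 2), and Ackr1 from -0.48 (without SA 4) to -0.0709 (without SA 3).

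Markers of the cells that carry these receptors also differed between libraries. In a bulk liver, fewer cells of a type and less RNA per cell cannot be told apart. All 7 tested of 10 markers of monocytes and recruited macrophages had a negative log2 fold change (median -0.79; Itgam was listed at 0), and their summed level was 63.3 to 90.4 CPM in SA livers and 61.4 to 245 CPM in ctrl livers, highest in ctrl 1 and lowest in ctrl 2. Among them Gpnmb, a glycoprotein gene of foamy macrophages, averaged 3.11 CPM in SA livers and 23.6 CPM in ctrl livers (edgeR, adjusted p = 0.227; DESeq2, adjusted p = 0.00966). Its level was 52.8, 4.55, 11.8 and 25.3 CPM in ctrl 1 to 4, against 2.60 to 3.60 CPM in SA livers. Spp1, listed here and not with the bile duct markers, averaged 38.1 CPM in SA livers and 70.8 CPM in ctrl livers. By mean level Spp1 was the largest of the tested markers in this sum in both groups. All 6 Kupffer cell markers had a positive value (median 0.54), with sums of 396 to 574 CPM in SA livers and 229 to 452 CPM in ctrl livers. The 5 dendritic cell markers, 4 of them tested (median -0.45), summed to 8.88 to 9.75 CPM in SA livers and 6.62 to 20.7 CPM in ctrl livers. The 6 neutrophil markers, 4 of them tested and all 4 negative (median -0.64), summed to 7.32 to 10.7 CPM in SA livers and 8.26 to 18.5 CPM in ctrl livers, with Ly6g listed at 0.

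T and NK cell markers stood beside Ccl5. The 8 T cell markers in the count table, 4 of them tested and all 4 positive (median 0.40), summed to 5.88 to 8.72 CPM in SA livers and 2.58 to 6.14 CPM in ctrl livers. The 6 NK cell markers, 2 of them tested and both positive, summed to 3.55 to 8.51 CPM in SA livers and 0.861 to 3.28 CPM in ctrl livers, without overlap. Of the 2 tested, the granzyme Gzma was without overlap on its own, and it made up 2.21 of the 3.55 CPM in SA 1. The groups overlapped for Nkg7, with SA 1 at 0.537 CPM below ctrl 1 at 1.16 CPM and ctrl 2 at 0.896 CPM. How often sums of other genes separate in this way was not computed. Cd8a, the co-receptor of cytotoxic T cells, averaged 1.44 CPM in SA livers and 0.204 CPM in ctrl livers (edgeR, adjusted p = 0.0819; DESeq2, adjusted p = 0.002504). The granzyme Gzma averaged 2.56 CPM in SA livers and 0.469 CPM in ctrl livers (edgeR, adjusted p = 0.227; DESeq2, adjusted p = 0.00184). Cd8a and Gzma were low in ctrl libraries and passed the filter through the SA libraries. The other tested T cell markers overlapped between the groups. They were Lck at 0.45 ± 0.36, Cd4 at 0.35 ± 0.58 and Trbc2 at 0.14 ± 0.64 (SE, edgeR). Stellate cell markers were negative in 6 of 6 tested (median -0.71), with sums of 260 to 323 CPM in SA livers and 319 to 787 CPM in ctrl livers and Lrat listed at 0. B and plasma cell markers (4 of 5 tested positive, median 0.17; Ms4a1 and Igkc listed at 0) summed to 15.6 to 43.7 CPM in SA livers and 19.3 to 32.4 CPM in ctrl livers. Sinusoidal endothelial markers (2 of 5 tested positive, median -0.13) summed to 133 to 230 CPM in SA livers and 190 to 225 CPM in ctrl livers. Of the bile duct markers 1 of 4 was positive (median -0.60), of the hepatocyte markers 3 of 5 (median 0.01) and of the blood markers 2 of 2 tested (median 0.52; Alas2 listed at 0). The part that any of these cells had in the chemokine values was not tested.

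Genes downstream of the receptors were split in sign. Of 33 listed genes of chemokine receptor signalling (G protein subunits, PI3 kinases, Rac activators, arrestins and receptor kinases), 31 were tested, 17 were positive and 14 negative (median 0.02), and none had an unadjusted edgeR p under 0.05. The smallest p-values belonged to Plcb3, a phospholipase C, at 0.35 ± 0.17, and Gnb1, a G protein beta subunit, at -0.23 ± 0.13 (SE). Of 17 tested genes that induce or control chemokine transcription, 3 had a higher and 1 a lower value at an unadjusted edgeR p under 0.05, none after adjustment. Of all tested genes 2.91% were higher and 3.29% lower at that p. Nfkbiz, an NF-kB cofactor, had 0.60 ± 0.19 (SE, edgeR; unadjusted p = 0.00734, adjusted p = 0.535) with no overlap between the groups, at 15.7, 15.5, 18.05 and 13.8 CPM in SA livers and 11.0, 7.65, 12.9 and 10.1 CPM in ctrl livers. The AP-1 subunits Fos and Jun had 3.16 ± 0.82 and 1.15 ± 0.43 (SE). Fos was at 1.07, 66.4, 12.7 and 18.1 CPM in SA livers and 1.65 to 4.50 CPM in ctrl livers. Jun was at 16.6, 110, 96.5 and 136 CPM in SA livers and 35.5 to 46.4 CPM in ctrl livers. For both genes SA 1 lay below every ctrl library. The NF-kB subunit Relb had -0.73 ± 0.33 (SE, edgeR; adjusted p = 0.797).

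Adhesion molecules of leukocyte entry were positive in 4 of 13 tested genes (median -0.09). Selplg, the selectin ligand of rolling leukocytes, had -0.65 ± 0.27 (SE, edgeR; unadjusted p = 0.0303, adjusted p = 0.732), with 4.02 to 6.09 CPM in SA livers and 5.24 to 10.8 CPM in ctrl livers. Chemokine-like genes outside the symbol rule were positive in 4 of 11 tested (median -0.07), with Rarres2, the precursor of chemerin, at -0.45 ± 0.21, Ccrl2 at -0.44 ± 0.28 and the platelet chemokine Pf4 at -0.65 ± 0.56 (SE). None of these chemokine-like genes had an unadjusted edgeR p under 0.05.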

How the data were processed

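Gene counts were deposited by the authors as whole numbers per gene symbol for 8 libraries with no normalization, and the authors also deposited FPKM values for 9265 symbols. HISAT2, StringTie 2.2.1 and FastQC 0.19.7 appear in the submitters' processing notes, which name the builds mm10 and GRCm39. The program that counted reads and its strand setting are not given in the sources used here. Antisense and overlapping genes may share reads. Columns were matched to samples by the number in each sample's description, and groups came from the titles.

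Counts were tested with edgeR 4.0.16 (quasi-likelihood F test, TMM factors, filterByExpr, 12358 genes) in R 4.3.3, with Benjamini-Hochberg adjustment over all tested genes and a threshold of 0.05. The standard error is the absolute log2 change divided by the square root of F. DESeq2 1.42.0 on the same filtered genes, limma 3.58.1 (voom, with and without sample weights, and log2(FPKM + 1) for rows with at least 0.5 FPKM in 4 libraries), other scalings and filters, a replicate block and the omission of each library were alternatives. The fit was tested on simulated data. The values of 1 tested member are not reported here, and it is counted in the totals only. Promoter motifs were shortened after a first search. The members, gene lists and alternatives were chosen with earlier results of these data known. Values are named for every member with 10 or more counts in at least 3 libraries and, per gene list, for members with small p. The biological coefficient of variation was 22.6%, and the smallest chi-square between any 2 libraries was 27.7 times its degrees of freedom, so all 8 were kept as separate samples.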

Additional observations from a re-analysis of the deposited data

Results flagged for a closer look

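In 3 of 54 groups of 4 libraries (27 tested genes, each in SA and in ctrl livers), 1 library lay far from the other 3 by Dixon's criterion. Chance flags about 1 in 20 such groups. Ccl3 was at 1.56 CPM in SA 2, against 0.671 to 0.723 CPM in the other SA livers. Cxcl16 was at 18.9 CPM in ctrl 1, against 11.1 to 11.8 CPM in the other ctrl livers. Ccl25 was at 17.8 CPM in ctrl 3, against 8.94 to 9.91 CPM in the other ctrl livers.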

How the results depend on the processing

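Of 27 tested members, 16 kept the sign of their log2 fold change under each alternative that gave a value, among them Cx3cr1, Ccr2, Ackr3, Ccr7, Ccl5, Cxcl1 and Cxcl12. The number of all genes called, 2 with edgeR and TMM, was 59 with DESeq2, 5 with voom and sample weights, 8 without a low-count filter and 6 with the replicate block, and 0 to 19 when 1 library was left out. The number of members called was 0 except with DESeq2, where it was 1 (Cx3cr1, -1.78). The members' median of -0.17, over 27 genes, ran from -0.33 (without ctrl 4) to -0.00401 (without ctrl 3) when 1 library was left out. In both log2(FPKM + 1) fits the median was -0.0424, but over 15 members, of which 3 are at 0 in the counts, so that the measure and the genes both differ. The receptors' median of -0.87 was -0.44 without a low-count filter, where 13 of 17 receptors were negative; the receptor and ligand medians were added after seeing the data. Ccl9 turned to 0.0350 with voom, 0.0266 with sample weights, 0.0315 with the block, 0.0479 in both log2(FPKM + 1) fits and 0.0564 with log2(FPKM + 0.1), and Ccl27a to -0.42 in both log2(FPKM + 1) fits and -0.52 with log2(FPKM + 0.1). Cxcr3 turned to -0.15 with voom and -0.88 with sample weights. With 1 library left out, the ranges were -0.16 to 0.18 for Ccl9, -0.13 to 0.25 for Ccl27a and Ccl27b, -0.27 to 0.64 for Cxcr3, -0.40 to 0.12 for Ccl4, -0.11 to 0.76 for Ccl3, -0.16 to 0.53 for Xcr1, -0.96 to 0.0828 for Cx3cl1, -0.39 to 0.0879 for Ccl24 and -0.36 to 0.0429 for Ccl25. The cause of these turns was not tested. The replicate numbers do not pair the libraries by label, and deviations of same-numbered libraries correlated at -0.0173, -0.0135, 0.244 and -0.238. Members under 1 CPM rest on few counts, which limits their precision.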
